A study of Mus musculus with 4 samples.

Results

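Expression of 10 genes of the interleukin-1 family and of the acute cytokines was examined in cells sorted as lung smooth muscle cells from *Tet3* mutant and control mice. The genes were *Il1a*, *Il1b*, *Il18*, *Il33*, *Il1rn*, *Il1r1*, *Il1r2*, *Il1rl1*, *Il6* and *Tnf*. They were chosen by name, and all 10 were found among the 21462 genes of the deposited expression table. None of the 9 that could be tested differed between mutants and controls after adjustment over all genes. *Il33* and *Il6* were lower in both mutants than in both controls, and *Il1r2* and *Il1r1* were higher in both. Such a separation of the 2 groups was seen in 39% of all tested genes, and *Il6* was too low to be tested. For *Il1a*, *Il1b*, *Il18*, *Il1rn*, *Il1rl1* and *Tnf* the values of the 2 groups overlapped.

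TET3 is a dioxygenase that oxidizes 5-methylcytosine to 5-hydroxymethylcytosine. The mutants were C57BL/6 mice with floxed *Tet3* alleles, a tamoxifen-inducible Cre under the α-SMA promoter, which is active in smooth muscle cells and also in other α-SMA-expressing cells, and a ROSA26 tdTomato reporter. Controls in the study lacked the floxed alleles but carried Cre, the reporter or both, and the labelling of the tdTomato+ cells sorted here needs both. Tamoxifen was given daily for 10 days from 8 weeks of age, and the interval from then to RNA collection is not given in the sources used here. Lungs were digested, blood cells were depleted with CD45 and Ter-119 beads, and living tdTomato+ cells were sorted for sequencing of total RNA without ribosomal RNA, with 2 libraries from controls and 2 from mutants.

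The deposited values were read counts per gene that the authors had scaled to a common library size, called normalized counts here. They summed to between 6805272 and 7164573 per library, and scaling factors estimated from the values put the reads in genes at about 6320000 to 7560000. *Tet3* itself was at 1847 and 1926 normalized counts in the controls and at 1534 and 1444 in the mutants, a log2 fold change of -0.34 ± 0.10 (SE) with a limma adjusted p of 0.681. Control replicate 2 stood apart from the other 3 libraries in sex-linked genes: *Xist* was at 2 normalized counts there and at 5214 to 6781 elsewhere, and the Y-linked *Ddx3y* was at 774 there and at 0 elsewhere. This is the pattern of a male animal in control replicate 2 and of females in the other libraries, with sex read from these genes only. The controls thus appear mixed in sex and the mutants female. Differences that hinge on control replicate 2 therefore cannot be told apart from a difference of sex. Control replicate 2 was also the lowest library for 6 of the 10 genes described here, against 33.05% of all tested genes. The summed markers of macrophages, neutrophils, dendritic cells and alveolar type 2 epithelium were well above 0 in every library. In every library the alveolar type 2, fibroblast and endothelial sums exceeded the smooth muscle sum. The smooth muscle sum was 5108 and 6747 normalized counts in the controls and 7952 and 7612 in the mutants. The fibroblast sum was 20845 and 17808 in the controls and 22470 and 19743 in the mutants. The lists hold different genes, so their sums do not measure shares of cells. Whether the RNA of these other markers came from other cells or from the sorted cells themselves was not tested. In a bulk sample fewer cells of a type and less RNA per cell cannot be told apart.

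IL-1α and IL-1β signal through the IL-1 receptor type 1 and, through the adaptor MyD88 and the IRAK kinases, switch on NF-κB target genes, among them *Il6* and *Tnf*. IL-1β and IL-18 are made as inactive precursors that caspase-1 cleaves inside inflammasomes, whereas IL-33 is stored in the nucleus and released as an alarm signal when cells are damaged. A natural antagonist (*Il1rn*) and a decoy receptor (*Il1r2*) restrain IL-1. In the lung, IL-33 acts through its receptor ST2 (*Il1rl1*) on group 2 innate lymphoid cells, mast cells and T cells, and alveolar type 2 cells are a known source of it in mice.

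The promoters of 4 of the cytokine genes are shown because *Il33* and *Il6* were the genes lower in both mutants while *Il1b* and *Tnf* overlapped between the groups. Each run is the 250 bases before the RefSeq transcription start, written 5′ to 3′ on the strand of the gene, from RefSeq on GRCm38.p6. Capitals mark matches, on either strand, to the κB consensus, to the AP-1 motif TGANTCA or to the C/EBP motif TTNNGNAA. The windows are chr2:129371140-129371389 on the minus strand for *Il1b*, chr19:29924863-29925112 on the plus strand for *Il33*, chr5:30012864-30013113 on the plus strand for *Il6* and chr17:35202008-35202257 on the minus strand for *Tnf*.
Il1b: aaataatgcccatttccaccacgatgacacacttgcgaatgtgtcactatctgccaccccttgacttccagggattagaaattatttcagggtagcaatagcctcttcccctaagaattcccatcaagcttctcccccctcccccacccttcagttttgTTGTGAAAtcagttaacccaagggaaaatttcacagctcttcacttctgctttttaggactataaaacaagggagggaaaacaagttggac
Il33: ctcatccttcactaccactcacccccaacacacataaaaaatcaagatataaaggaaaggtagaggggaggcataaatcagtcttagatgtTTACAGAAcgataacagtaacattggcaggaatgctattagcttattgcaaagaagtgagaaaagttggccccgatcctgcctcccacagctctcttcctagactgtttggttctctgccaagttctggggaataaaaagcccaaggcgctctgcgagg
Il6: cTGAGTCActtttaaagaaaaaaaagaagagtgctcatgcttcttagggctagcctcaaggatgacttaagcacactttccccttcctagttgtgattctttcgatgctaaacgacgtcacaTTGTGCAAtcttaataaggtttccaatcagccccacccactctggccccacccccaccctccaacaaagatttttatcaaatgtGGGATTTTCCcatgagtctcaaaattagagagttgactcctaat
Tnf: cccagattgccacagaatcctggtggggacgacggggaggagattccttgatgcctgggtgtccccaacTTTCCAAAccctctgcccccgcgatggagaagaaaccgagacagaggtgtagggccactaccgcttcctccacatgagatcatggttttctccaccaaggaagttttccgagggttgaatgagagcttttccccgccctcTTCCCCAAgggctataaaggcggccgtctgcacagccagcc
The *Il6* window alone among these 4 held all 3 motifs, the AP-1 match at its far end, the C/EBP match in its middle and the κB match nearest the gene. The *Il1b*, *Il33* and *Tnf* windows held C/EBP matches and neither of the other motifs. Over the 15 start sites that RefSeq gives for the 10 genes, some of whose windows overlap, a κB match was present in 2 windows, an AP-1 match in 3 and a C/EBP match in 12. Among 32851 promoter windows of the same length in the genome, the shares with a match were 7.25%, 6.75% and 36.8%. In the second *Il1r1* window the κB and C/EBP matches overlapped. These are matches of letters only, and binding was not measured here.

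The question put to the table was whether these genes differed between mutants and controls. Values are given per library, controls first. The fold changes are on the log2(normalized count + 1) scale, mutant over control, from limma fitted across the 16659 genes with a mean of at least 10 normalized counts, and their errors are standard errors. Of all tested genes, 0% passed an adjusted p of 0.05, 6.68% had an unadjusted p under 0.05 (3.83% with the mutants higher and 2.85% lower), and in 39% the 2 groups did not overlap, 19.6% with the mutants higher and 19.5% with the mutants lower. With 2 libraries a group an exact permutation test of a single gene cannot go below a p of 0.333, so none is given.

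**Figure D1:**
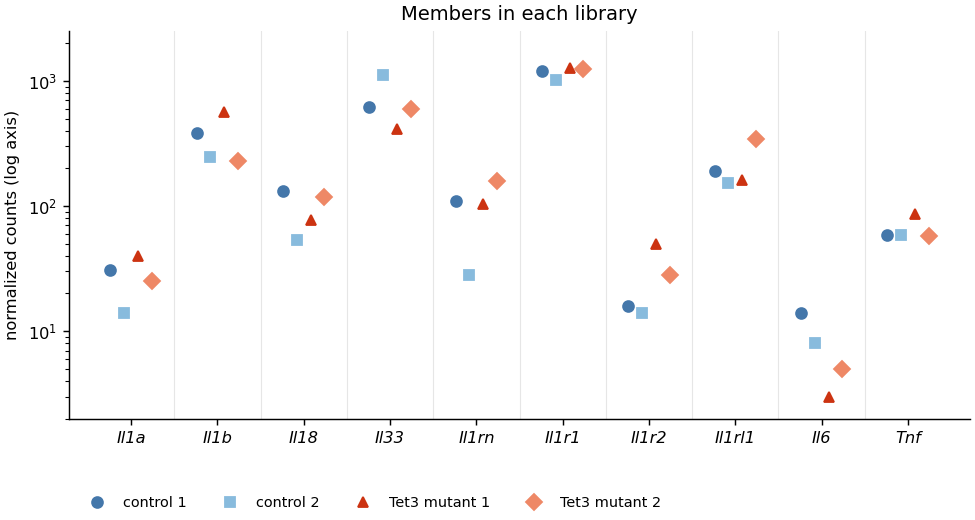
Normalized counts of the 10 genes in each library, on a log axis. Circles and squares are the 2 controls, triangles and diamonds the 2 *Tet3* mutants, and only *Il33* and *Il6* have both mutants below both controls, and only *Il1r1* and *Il1r2* both above.

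Among the ligands, *Il33* (ENSMUSG00000024810, chr19:29925114-29960718, plus strand) was present at 624 and 1108 normalized counts in the controls and at 414 and 593 in the mutants. Both mutants lay below both controls, with mutant replicate 2 close to control replicate 1. The group means were 866 ± 342 and 503.5 ± 127 (SD, n = 2), a ratio of 0.581. The log2 fold change was -0.75 ± 0.32, with a 95% interval of -1.57 to 0.08 and a limma adjusted p of 0.681. It was the only one of the 9 tested genes with a fold change below 0, and the value stayed below 0 with each library left out, between -1.16 without control replicate 1 and -0.33 without control replicate 2.

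*Il1b* (ENSMUSG00000027398, chr2:129364570-129371139, minus strand) encodes the inflammasome-processed ligand of the IL-1 receptor and is made mainly by myeloid cells. It was at 386 and 246 normalized counts in the controls and at 561 and 231 in the mutants. The highest and the lowest library were both mutants, which differed from each other by 2.43-fold, more than the controls did (1.57-fold). The means were 316 ± 99 and 396 ± 233 (SD, n = 2), and the log2 fold change was 0.22 ± 0.47 (95% interval -0.97 to 1.42, limma adjusted p = 0.909). Its sign turned with the libraries used: it was -0.41 without mutant replicate 1 and -0.10 without control replicate 2, but 0.86 without mutant replicate 2. The squared difference between replicates divided by their sum, which counting error alone keeps near 1, was 137.5 for the mutants and 31.0 for the controls, against medians of 1.56 and 3.31 over all tested genes. The spread between replicates of *Il1b* was thus well above counting error. The study reports *Il1b* as upregulated in the mutants of these samples, from a different test with a minimum fold change. That test was not rerun here, and in the deposited values the groups overlapped. The study also reports *Il1b* from RT-qPCR in stem cell-derived smooth muscle cells with *Tet3* knockdown and in HeLa cells given RNA of mutant cells. These libraries do not address those experiments. *Il1b* shares 25 exon bases with the antisense gene *Il1bos*, which averaged 5.75 normalized counts, and whether the counting used strand was not stated.

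*Il1a* (ENSMUSG00000027399, chr2:129299610-129309972, minus strand), the neighbouring ligand gene, whose precursor is already active at the same receptor, was much lower. It was at 31 and 14 normalized counts in the controls and at 40 and 25 in the mutants, so mutant replicate 2 lay between the controls. The log2 fold change was 0.58 ± 0.53 (95% interval -0.77 to 1.93, limma adjusted p = 0.770), and it was 0.029 without control replicate 2 and 1.12 without control replicate 1. Its exons share 222 bases with the antisense gene *Gm14023*, which averaged 3.25 normalized counts.

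*Il18* (ENSMUSG00000039217, chr9:50554827-50581840, plus strand), the other caspase-1 substrate, was at 132 and 54 normalized counts in the controls and at 78 and 118 in the mutants. Both mutants lay between the controls. The log2 fold change was 0.18 ± 0.49 (limma adjusted p = 0.932), and it ran from -0.46 without control replicate 2 to 0.82 without control replicate 1.

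*Il1rn* (ENSMUSG00000026981, chr2:24336853-24351494, plus strand) encodes the IL-1 receptor antagonist, which binds the receptor without activating it. It was at 110 and 28 normalized counts in the controls and at 104 and 160 in the mutants. The low value of control replicate 2 set the difference, since control replicate 1 and mutant replicate 1 were nearly equal. The log2 fold change was 1.2 ± 0.68 (95% interval -0.53 to 2.92, limma adjusted p = 0.689), and it was 0.23 without control replicate 2 and 2.17 without control replicate 1.

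The signalling receptor *Il1r1* (ENSMUSG00000026072, chr1:40225080-40317257, plus strand) is the receptor through which both IL-1 ligands act. It was at 1199 and 1024 normalized counts in the controls and at 1271 and 1251 in the mutants. Both mutants lay above both controls, but by little: the log2 fold change was 0.19 ± 0.12, with a 95% interval of -0.12 to 0.49 and a limma adjusted p of 0.710. It was 0.073 without control replicate 2 and 0.30 without control replicate 1.

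The decoy receptor *Il1r2* (ENSMUSG00000026073, chr1:40074079-40125231, plus strand) binds IL-1 without signalling and is known from neutrophils and other myeloid cells. It was at 16 and 14 normalized counts in the controls and at 50 and 28 in the mutants. Both mutants were above both controls, with means of 15 ± 1.41 and 39 ± 15.6 (SD, n = 2), a ratio of 2.6. The log2 fold change was 1.27 ± 0.44 (95% interval 0.14 to 2.39). It was the only gene of the 9 with an unadjusted p under 0.05 (0.0337), a level that 6.68% of all tested genes reached, and its limma adjusted p was 0.681. It was higher in the mutants with each library left out, by 0.86 to 1.68 on the log2 scale. Per kilobase of exon, the signalling receptor exceeded the decoy by 22.5 and 21.9 in the controls and by 7.62 and 13.4 in the mutants.

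*Il1rl1* (ENSMUSG00000026069, chr1:40429570-40465415, plus strand), which encodes the IL-33 receptor ST2, was at 191 and 154 normalized counts in the controls and at 162 and 346 in the mutants. Mutant replicate 2 was the highest library, and mutant replicate 1 lay between the controls. The log2 fold change was 0.46 ± 0.39 (limma adjusted p = 0.75), and -0.08 without mutant replicate 2. Ligand over receptor, *Il33* per kilobase exceeded *Il1rl1* by 7.8 and 17.2 in the controls and by 6.1 and 4.09 in the mutants, so that both mutants were below both controls in this ratio too, with *Il33* as one of its terms.

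Of the 2 acute cytokines, *Il6* (ENSMUSG00000025746, chr5:30013114-30019981, plus strand), an inducer of the acute phase response, was the scarcest of the 10 genes, at 14 and 8 normalized counts in the controls and at 3 and 5 in the mutants. Both mutants were below both controls, but with a mean of 7.5 the gene did not reach the minimum of 10 for the test. Taken as reads, the sums of 22 and 8 give a control to mutant ratio of 2.75 with an exact 95% interval of 1.18 to 7.14, which covers counting error only and not the spread between animals. With the minimum lowered to a mean of 1, limma gave a log2 fold change of -1.25 and an adjusted p of 0.718. *Tnf* (ENSMUSG00000024401, chr17:35199381-35202007, minus strand), a trigger of NF-κB signalling and its target, was at 59 and 59 normalized counts in the controls and at 87 and 58 in the mutants. Only mutant replicate 1 stood above the rest, and the log2 fold change of 0.26 ± 0.31 (limma adjusted p = 0.822) was -0.024 without it.

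**Figure D2:**
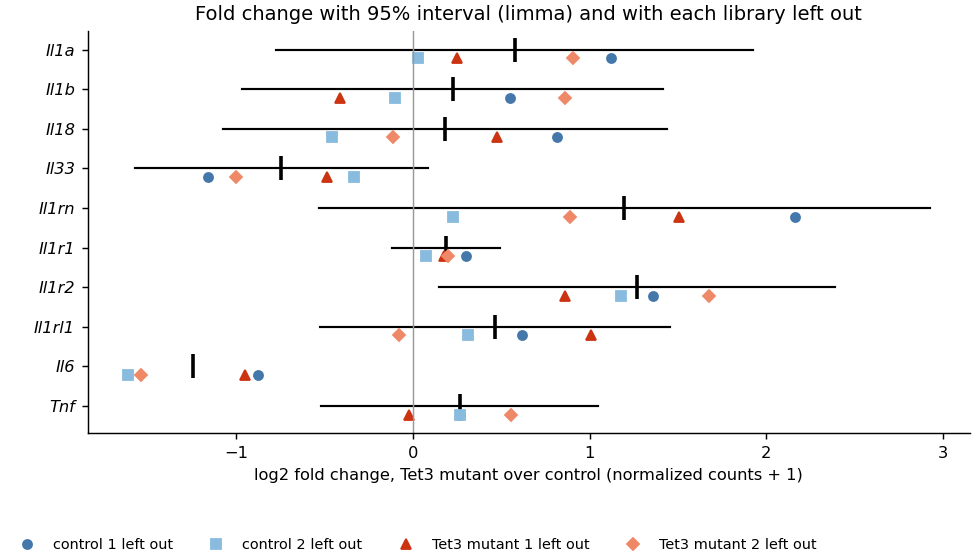
Log2 fold change of each gene, mutant over control, with its 95% limma interval (vertical tick and line) and with each of the 4 libraries left out (symbols). *Il6* has no interval because it was too low to be tested. The symbols of *Il1b*, *Il18*, *Il1rl1* and *Tnf* fall on both sides of 0, and those of the other 6 genes stay on one side.

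Counted over the 9 tested genes, 8 fold changes were above 0 and 1 below, against 48.9% above 0 among all tested genes, and with each library left out 6 to 8 were above 0. Their median was 0.26 against -0.01 over all genes, and it lay between 0.07 and 0.62 with each library left out, lowest without control replicate 2. In 2 genes both mutants were higher and in 1 both were lower, beside 19.6% and 19.5% of all genes. Mutant replicate 1 was the highest library for 5 of the 10 genes and mutant replicate 2 for 2.

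Levels were compared roughly between genes as normalized counts per kilobase of exon, with the exons of all annotated transcripts merged. A gene whose expressed transcript is shorter than this merged length comes out lower. The merged length was 5.535 kilobases for *Il1rn* and 1.907 for *Il1b*. On this scale the order in the controls was *Il33* (300.1), *Il1r1* (174.7), *Il1b* (165.7), *Il18* (90.2), *Tnf* (36.0), *Il1rl1* (25.0), *Il1rn* (12.5), *Il1a* (11.4), *Il1r2* (7.86) and *Il6* (4.53). Neighbours whose control values overlapped were *Il1r1* and *Il1b*, *Il1rn* and *Il1a*, and *Il1a* and *Il1r2*. In the mutants the mean of *Il33* was 174.5 per kilobase, below those of *Il1b* (207.7) and *Il1r1* (198.2), and *Il1r2* (20.4) was above *Il1a* (16.5). These mutant values overlapped: *Il33* was at 143.5 and 205.5 per kilobase, *Il1b* at 294.2 and 121.1, and *Il1r1* at 199.7 and 196.6, and *Il1r2* at 26.2 and 14.7 overlapped *Il1a* at 20.3 and 12.7. Among all tested genes *Il33* stood at percentile 94.0, *Il1b* at 89.45 and *Il1r1* at 89.41, while *Il1rn*, *Il1a* and *Il1r2* stood at 22.6, 17.6 and 17.9 and *Il6* at 1.84. The message for the IL-1 agonist *Il1b* outnumbered that of the antagonist *Il1rn* by 10.2 and 25.5 per kilobase in the controls and by 15.7 and 4.19 in the mutants, values that overlap. Likewise *Il1b* outnumbered *Il1a* by 12.9 and 18.2 in the controls and by 14.5 and 9.56 in the mutants.

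For *Il33*, *Il1b*, *Il1r2* and *Il6* the genes with the most similar pattern over the 4 libraries were sought among 10596 genes with a mean of at least 100, by the root mean square difference of log2 values centred on each gene's mean. With 4 points these are descriptions without a test. Nearest to *Il33* was *Sftpd*, the alveolar type 2 surfactant protein D gene, at 865, 1523, 571 and 823 normalized counts and a difference of 0.00554. *Il33* was 72.1% to 72.8% of *Sftpd* in every library, a near-constant share that follows from choosing *Sftpd* as the nearest gene. Next came *Cebpa* (0.0433), a transcription factor of alveolar type 2 and myeloid cells, and *Zdhhc3* (0.0464). The median difference of *Il33* from 10 alveolar type 2 markers, *Sftpd* among them, was 0.182, against 0.516 from all 10596 genes. Single genes of other lists were also near. The nearest of them was at 0.0964, among the mast cell and basophil markers, whose median was 0.629.

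Nearest to *Il1b* were *Naip5* (0.092), an inflammasome receptor at 129, 92, 177 and 81 normalized counts, and the myeloid receptor genes *Lilrb4a* (0.121) and *Lilr4b* (0.173). All of these have close paralogs that could share reads, so their values are uncertain. Nearest to *Il1r2* were the calcium channel gene *Cacna1g* (0.115) at 77, 84, 243 and 141 normalized counts, *Ppp1r3a* (0.115) and *Pcdh9* (0.126), none of them a myeloid marker. From the 9 neutrophil markers *Il1r2* had a median difference of 0.347, against 0.713 from all genes. *Il1b* had 0.504 from the neutrophil markers, against 0.542 from all genes. Its median difference was larger from the macrophage markers (0.595) and smaller from the fibroblast (0.426) and endothelial (0.449) markers. Such medians also depend on how much the markers themselves vary between libraries. They therefore do not show which cell type *Il1b* follows. For *Il6* the nearest genes, *Slc13a4* (0.198), *Sox11* (0.206) and *Slc1a2* (0.238), were farther away than those of the other 3.

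**Figure D3:**
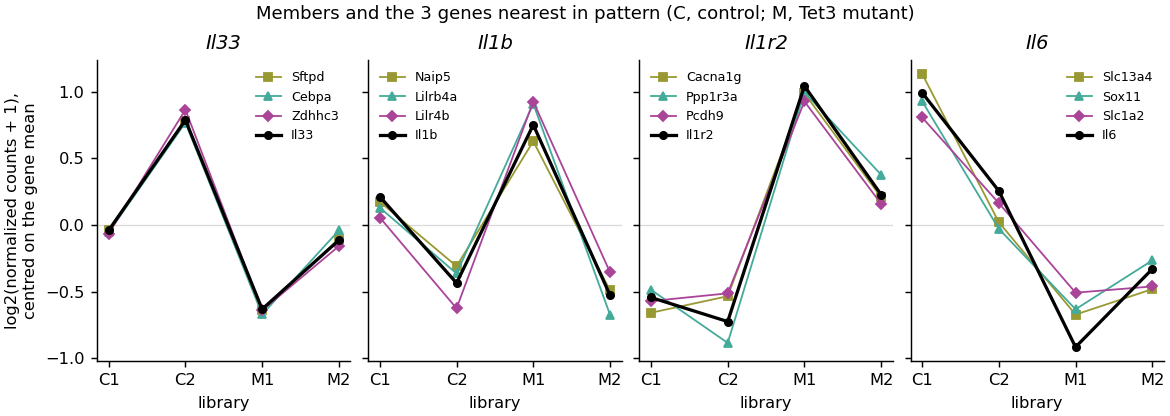
Log2(normalized count + 1), centred on the gene's mean, in the 2 controls (C1, C2) and the 2 mutants (M1, M2), for 4 of the genes (black) and the 3 genes nearest to each (coloured). *Sftpd* and *Il33* differ by 0.00554 and their lines lie on each other.

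Markers of other cell types moved with several of these results. For the counts of separated genes, 19.6% of all tested genes were higher in both mutants and 19.5% lower. All 10 alveolar type 2 markers had fold changes below 0, with a median of -0.71 and 8 lower in both mutants than in both controls, and their sum was 16681 and 25097 normalized counts in the controls and 11307 and 15141 in the mutants. *Il33* amounted to 3.74% and 4.41% of that sum in the controls and to 3.66% and 3.92% in the mutants. The median was -0.39 without control replicate 2, when 1 of 10 was above 0, or without mutant replicate 1, and -1.01 without either of the other 2 libraries. The part of these cells in the lower *Il33* was not tested. In dissociation stress genes, which include immediate early genes, 12 of 12 fold changes were below 0 with a median of -0.16, but the sums of 9742 and 12459 in the controls and 10436 and 7751 in the mutants overlapped, and 5 of 12 were above 0 without control replicate 2.

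All 9 neutrophil markers had fold changes above 0, with a median of 0.80 and 7 higher in both mutants, and they summed to 1153 and 839 normalized counts in the controls and to 2025 and 1455 in the mutants. *Il1r2* was 1.39% and 1.67% of this sum in the controls and 2.47% and 1.92% in the mutants. Both mutants were above both controls on that scale, but the shares rest on only 14 to 50 normalized counts of *Il1r2* a library. Without control replicate 2 the neutrophil median was 0.60, with 7 of 9 above 0. *Il1b* was 33.5% and 29.3% of it in the controls and 27.7% and 15.9% in the mutants. The 15 macrophage markers had a median of 0.40 (0.23 without mutant replicate 2 and 0.25 without control replicate 2), with 9 higher in both mutants, and sums of 8926 and 7774 against 9639 and 10860. *Il1b* was 4.32% and 3.16% of the macrophage sum in the controls and 5.82% and 2.13% in the mutants, and *Il1rn* was 1.23% and 0.36% against 1.08% and 1.47%. The dendritic cell markers summed to 1872 and 2006 in the controls and to 2381 and 3049 in the mutants, with 8 of 8 above 0 (6 without control replicate 1).

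Markers of T, NK and group 2 innate lymphoid cells summed to 1077 and 596 normalized counts in the controls and to 1086 and 1084 in the mutants, with 11 of 12 tested genes above 0 and a median of 0.95, and they were lowest in control replicate 2, without which 5 were above 0 and the median was -0.06. Those of mast cells and basophils, of which only 3 of 9 reached the minimum, summed to 1824 and 1859 against 1458 and 1609, with a median of -0.34 that was -0.02 without mutant replicate 2. *Il1rl1*, which both kinds of cell carry, was 17.7% and 25.8% of the first sum in the controls and 14.9% and 31.9% in the mutants, and 10.5% and 8.28% of the second against 11.1% and 21.5%. The smooth muscle markers themselves were higher in both mutants for 7 of 10 genes and summed to 5108 and 6747 in the controls and to 7952 and 7612 in the mutants, with a median of 0.52 (0.29 without control replicate 1 and 0.85 without control replicate 2). Endothelial (median 0.09), fibroblast (0.16) and mesothelial (-0.64) markers had small or unstable differences, with the sums of fibroblasts and mesothelium overlapping between the groups, the mesothelial median at 0.30 without control replicate 1, and endothelial sums of 16158 and 15681 against 17344 and 16776. The part of these cell types in the values of the interleukin genes was not tested.

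**Figure D4:**
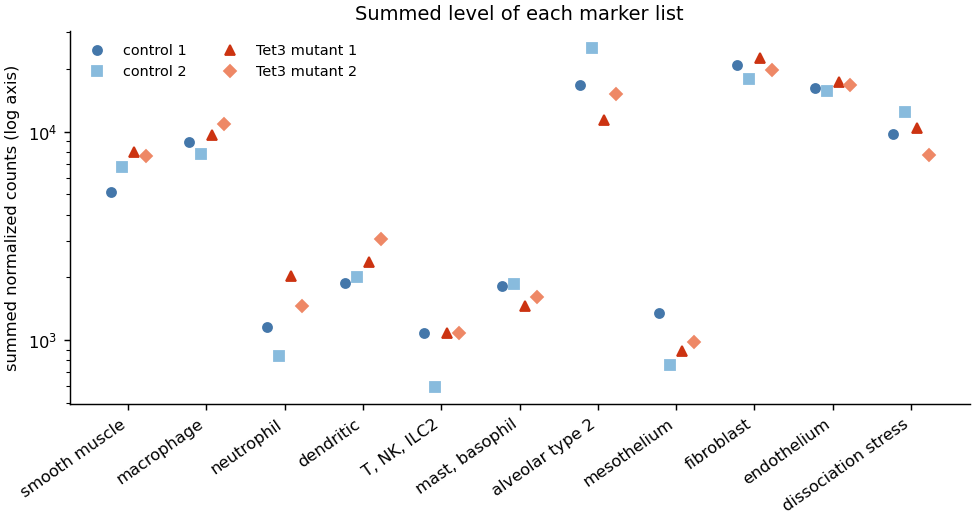
Summed normalized counts of each marker list per library, on a log axis. The alveolar type 2 sums of both mutants (11307 and 15141) lie below those of both controls, as do the mast cell and basophil sums. The neutrophil, macrophage, dendritic, smooth muscle, endothelial and T, NK and ILC2 sums lie above.

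Genes that act with these cytokines were counted in 6 lists, and 0 genes of any list passed an adjusted p of 0.05 in limma, as was the case for all genes. Among all tested genes 19.6% were higher in both mutants and 19.5% lower. The inflammasome list, which holds the sensors, adaptor and proteases that process IL-1β and IL-18, had 14 of 15 genes above 0, a median of 0.22, 8 genes higher in both mutants and 1 lower, and 10 were above 0 without control replicate 2 (median 0.16, and 0.37 without control replicate 1). The adaptor *Pycard* was at 118 and 95 normalized counts in the controls and at 142 and 177 in the mutants (log2 fold change 0.58 ± 0.23, limma adjusted p = 0.681). *Casp1*, the protease that cleaves both cytokines, was at 110 and 81 against 125 and 177 (0.65 ± 0.28, limma adjusted p = 0.681). The macrophage and neutrophil sums above moved the same way, and their part was not tested.

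Of 7 other genes of the interleukin-1 ligand and receptor family, 4 were above 0 with a median of 0.25 (0.057 without control replicate 2 and 0.42 without control replicate 1), and 3 were higher in both mutants. The IL-18 receptor subunit *Il18rap* was at 133 and 115 normalized counts in the controls and at 165 and 156 in the mutants (0.37 ± 0.19, limma adjusted p = 0.685). The epithelial cytokine IL-36γ, listed as *Il1f9*, was at 16 and 14 against 62 and 20 (1.19 ± 0.61, limma adjusted p = 0.687), a difference that mutant replicate 1 carried. The list of IL-1 receptor signal transduction had 9 of 21 genes above 0 and a median of -0.02. In it 4 genes were higher in both mutants and 6 lower, beside 19.6% and 19.5% of all tested genes. Its kinases *Irak2* and *Irak4* had fold changes of opposite sign. *Irak2* was at 342 and 430 in the controls and at 269 and 301 in the mutants (-0.43 ± 0.17, limma adjusted p = 0.681), and *Irak4* was at 345 and 295 against 395 and 412 (0.34 ± 0.14, limma adjusted p = 0.681).

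Downstream of IL-6, 13 of 17 genes of its receptor and the JAK-STAT cascade were above 0 with a median of 0.06, but 6 with a median of -0.02 without control replicate 2. The feedback inhibitor *Socs3* was at 494 and 483 normalized counts in the controls and at 376 and 443 in the mutants (-0.26 ± 0.14), and the receptor sheddase *Adam10* was at 1107 and 988 against 1117 and 1195 (0.14 ± 0.11). Of 15 tested genes of TNF receptors and their signalling, 8 were above 0 with a median of 0.04 (0.11 without mutant replicate 1). *Tnfaip8*, an apoptosis regulator, was at 314 and 236 in the controls and at 356 and 422 in the mutants (0.51 ± 0.20), and the stress kinase gene *Map3k5* was at 1104 and 1290 against 1018 and 991 (-0.25 ± 0.12). None of these 4 passed the adjusted threshold.

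Among 24 tested NF-κB target genes, 11 were above 0 and the median was -0.05. Of these genes 6 were higher in both mutants and 3 lower, beside 19.6% and 19.5% of all tested genes. The median turned positive without control replicate 1 (0.068, 13 above 0) and without mutant replicate 2 (0.034, 15 above 0). The lower ones included the granulocyte-macrophage growth factor *Csf2*, at 36 and 64 normalized counts in the controls and 8 and 15 in the mutants (-2.03 ± 0.51, limma adjusted p = 0.681). They also included *Lcn2*, an iron-sequestering protein of epithelium and neutrophils, at 423 and 585 against 158 and 352 (-1.07 ± 0.41, limma adjusted p = 0.681). *Csf2* is also made by alveolar type 2 cells, whose marker sums were lower in both mutants, and that part was not tested.

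**Figure D5:**
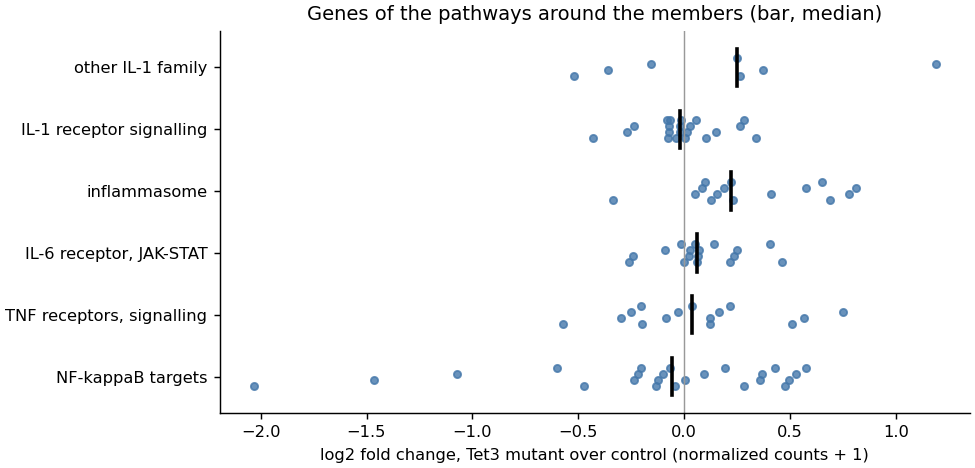
Log2 fold changes, mutant over control, of the tested genes in 6 lists around the cytokines, with the median of each list as a bar. The inflammasome genes have 14 of 15 points above 0, while the medians of IL-1 receptor signalling and of the NF-κB targets lie at -0.02 and -0.05 (the latter above 0 without control replicate 1 or mutant replicate 2), and the point farthest left is *Csf2*.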

How the data were processed

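Total RNA depleted of ribosomal RNA was sequenced from sorted tdTomato+ lung cells of 2 control and 2 *Tet3* mutant mice. Per the labels, reads were trimmed with Trimmomatic 0.36 and aligned to mm10 (GRCm38) with STAR 2.6.0c, and featureCounts of Subread 1.6.0 counted them per gene, without reads that mapped to several places or genes. The deposited values are scores made from counts: the authors scaled the counts of each library with DESeq2 and rounded them to whole numbers. Because raw counts could not be recovered from them, limma 3.58.1 in R 4.3.3 (linear fit, empirical Bayes with a mean-variance trend) was used on log2(value + 1) in place of a count test, for 16659 genes (mean value of at least 10), with Benjamini-Hochberg adjustment over all of them. The fit was checked on simulated data with large changes and the same spread setting for all genes. That check does not measure its power in these libraries.

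Exon lengths came from a GENCODE annotation of GRCm38, with the exons of all transcripts of a gene merged. The 10 genes were named whatever their values. Of each pathway list the 2 genes of smallest unadjusted p were named, and of each marker list the sum and counts. Pattern likeness took the 3 nearest genes (mean of at least 100). The genes and the lists were chosen with earlier results of these data known. The study names *Il1b* among the Toll-like receptor signalling genes that it reports as upregulated in the mutants of these samples. The log2 fold change of *Il1b* here was 0.22 ± 0.47 (limma adjusted p = 0.909), with overlapping groups, and the test of the study was not rerun. The study describes its libraries as independent animals, and p-values measure the spread between them. Alternatives were another pseudocount, mean minimum, scaling or trend, a replicate block, and each library left out.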

Additional observations from a re-analysis of the deposited data

How the results depend on the processing

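No alternative called any of the 10 genes, and the smallest limma adjusted p among them ran from 0.205 to 0.998 (0.681 as reported). Over all genes 0 were called throughout, except 1 without the mean-variance trend. No other pseudocount, minimum or scaling reversed a direction. With each library left out, the fold changes ran from -0.41 to 0.86 for *Il1b*, from -0.46 to 0.82 for *Il18*, from -0.024 to 0.55 for *Tnf* and from -0.082 to 1.01 for *Il1rl1*, the median of the 9 genes from 0.073 to 0.62, and the tested genes with groups apart from 4 to 7, since groups with 1 sample overlap less easily. Genes with an unadjusted p under 0.05 numbered 1112 as reported and from 273 to 3366 with a library left out, and 57.4% of them were higher in the mutants, against 69.2% with equal library totals and 42.8% with the replicate block. List counts and medians with a library left out were added after seeing the data. A lone sample was assumed to vary like the others. The numbers of the replicates were not shown to pair the samples (correlation of deviations 0.134 over 16659 genes, 2 pairs). With the replicate block 0 genes and 0 of the 10 were called, the smallest adjusted p over all genes was 0.149, and *Il33* had 0.303. Depth limits *Il6*, at 3 to 14 normalized counts a library.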
